A study of Drosophila melanogaster with 36 samples.

Results

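Maltases are the α-glucosidases with which flies split disaccharides, and they act mainly in the gut. Described here are 10 α-glucosidase genes in Drosophila melanogaster females: the maltase genes Mal-A1 to Mal-A8 and Mal-B1, and tobi. The gene tobi is named as a target of brain insulin. The 10 genes were looked up by their FlyBase symbols among the 17552 genes of the deposited count table, and all were there. The study measured RNA in female abdomens and heads, to ask whether the mating regime under which males evolved changes how their mates respond. Females came from the IV base population, and each library pooled tissue of 20 of them frozen at 4 days of age. Mated females had been paired at 3 days, 24 h before freezing, with males of populations evolved for 182 generations under enforced monogamy (M1, M2 and M3) or in polygamous groups (P1, P2 and P3). Those males had then spent 1 further generation in a common garden, and virgin females were the unmated controls of the same base population. Each tissue had 3 libraries with M males, 3 with P males and 3 of virgins. A mated library stands for 1 male population, and nothing in the labels says that the virgin pools came from separate cultures. The p-values therefore set group differences against the spread among these pools only.

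Digestive α-glucosidases release glucose from sucrose, maltose and the fragments that amylase makes from starch. In flies a sugar-rich diet lowers the transcripts of amylases and maltases in the gut, and the activin-like ligand Dawdle and the transcription factor Sugarbabe are known to take part in that response. Transcription of tobi is known to respond in opposite directions to dietary sugar and protein, and to depend on the brain's insulin-producing cells and on adipokinetic hormone.

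The 8 Mal-A genes lie side by side on chromosome arm 2R of the BDGP6 assembly, from 8449664 to 8473961, a span of 24.3 kb in which no other protein-coding gene lies wholly. Mal-A2, Mal-A4, Mal-A5, Mal-A6 and Mal-A8 are on the plus strand and Mal-A1, Mal-A3 and Mal-A7 on the minus strand. Mal-B1 lies at 11847226 to 11849169 on 2L, plus strand, within the bounds of Pde1c on the other strand but with 0 bases of exon shared. The tobi gene lies at 25344761 to 25346921 on 3R, minus strand, and shares 78 bases of exon with rha on the other strand. Mal-A1 shares 82 bases of exon with Cyp4e1 and Mal-A8 shares 6 with mtt, both on the other strand. The kit kept strand, but the strand setting of the counting is not given in the sources used here, so reads in these stretches are uncertain, as is the split of reads between related maltase copies.

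Libraries held 41057456 to 56772245 counts in abdomens and 40396031 to 64761633 in heads. Nerve and photoreceptor markers summed to 211 to 281 counts-per-million (CPM) in abdomens and 67419 to 81898 in heads, and germline markers to 3566 to 4923 in abdomens and 101 to 125 in heads. Digestive proteases of the midgut, 29 genes, summed to 6737 CPM in head M1, 14011 in head M2 and 9073 in head virgin 1, but to between 12.7 and 96.2 CPM in the other 6 heads. Results for heads are therefore given with and without those 3 libraries. Of the proteases, 2 to 4 were at 0 in the 3 libraries and 3 to 6 in the others. In abdomens, sums over several tissue lists differed between mated and virgin libraries, and they stand beside the results there.

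In abdomens, transcripts of tobi and of 4 maltases at the outer ends of the cluster were lower in mated than in virgin females. The gene tobi fell most firmly. Of the 10 genes, 5 passed the test in the lower direction (tobi, Mal-A1, Mal-A6, Mal-A7 and Mal-A8) and 0 in the higher one, where 54.2% of the 10350 genes tested passed in either direction 25.2% in the lower and 29% in the higher. The median log2 change was -1.03 over the 10 genes and 0.04 over all genes tested. Under the main scaling, changes this large were rare: 0.29% of all genes passed and were lower by at least 2-fold. That share depends on the scaling. With libraries scaled to muscle and renal tubule genes, the median change of all genes was itself -0.96. In bulk tissue, fewer cells of a type and less RNA per cell cannot be told apart.

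In mated abdomens tobi had 19.3, 23.3 and 11.8 CPM with M1, M2 and M3 males and 21.8, 13.2 and 30.2 CPM with P1, P2 and P3 males, against 75.3, 103 and 83.4 CPM in virgin abdomens 1 to 3. Every mated library was below every virgin one, with a wide gap between the groups. The mean was 19.9 ± 6.82 CPM in mated abdomens (SD, n = 6) and 87.3 ± 14.3 CPM in virgin abdomens (SD, n = 3), a log2 change of -2.11 ± 0.26 (SE) with an adjusted p of 0.000512 (edgeR quasi-likelihood test, Benjamini-Hochberg over all genes). Each of the 19 alternative analyses kept this fall past the threshold, with adjusted p-values of at most 0.00453.

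Mal-A1 was the most abundant of the falling maltases per kilobase of exon. It had 20.3, 69.3 and 35.4 CPM in abdomens of females mated to M males and 77.5, 16.8 and 87.0 CPM in those mated to P males, against 129, 192 and 126 CPM in virgin abdomens. The groups did not overlap, but the mated libraries ranged widely, with M1 and P2 lowest. The log2 change was -1.54 ± 0.54, with an edgeR adjusted p of 0.0472.

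Mal-A6 followed the same layout, with 9.19, 15.3 and 20.4 CPM with M males and 31.3, 8.81 and 39.8 CPM with P males, against 52.6, 85.9 and 52.4 CPM in virgin abdomens. Its log2 change was -1.65 ± 0.45 (edgeR adjusted p = 0.0179). Mal-A7 had 2.10, 11.5 and 14.3 CPM with M males and 18.9, 2.81 and 22.9 CPM with P males, against 39.2, 76.0 and 47.5 CPM in virgin abdomens. No mated library of either gene reached the lowest virgin one, and in both M1 and P2 were again the lowest mated libraries. For Mal-A7 the log2 change was -2.19 ± 0.71 (edgeR adjusted p = 0.0363), and its lowest mated value rested on 119 reads.

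Mal-A8, which ends the cluster, had 2.80, 9.31 and 12.9 CPM with M males and 13.9, 5.42 and 21.7 CPM with P males, against 28.7, 61.0 and 33.4 CPM in virgin abdomens. The groups did not overlap, and the log2 change was -1.92 ± 0.54 (edgeR adjusted p = 0.0204). For these 5 genes every mated abdomen lay below every virgin abdomen, as it did for 26% of all genes tested.

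**Figure D1:**
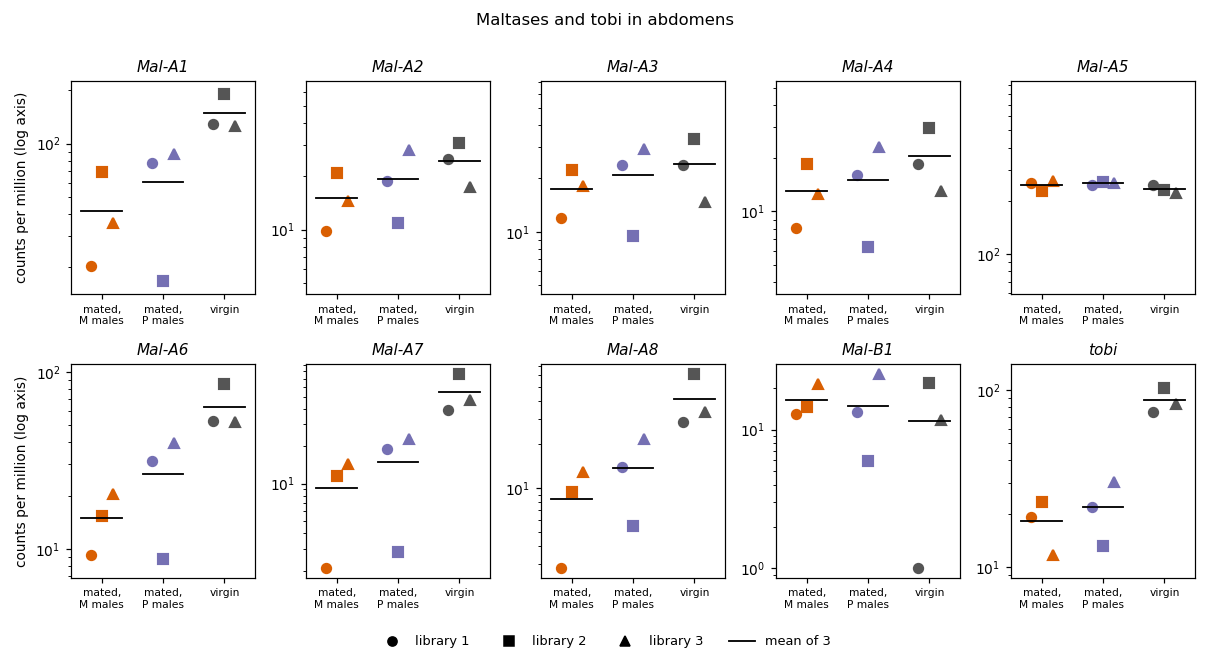
Level of each of the 10 genes in the 9 abdomen libraries, in CPM on a log axis, with 1 panel per gene. Symbols are libraries 1 to 3 of a group and lines are group means; tobi, Mal-A1, Mal-A6, Mal-A7 and Mal-A8 show no overlap between mated and virgin abdomens, and Mal-A5 stays between 220.5 and 258 CPM.

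The middle of the cluster gave smaller differences that did not pass. Mal-A2 had 9.78 to 28.3 CPM in mated abdomens and 17.4 to 30.7 CPM in virgin abdomens. Mal-A3 had 9.47 to 29.3 CPM in mated abdomens and 14.7 to 33.5 CPM in virgin abdomens, and Mal-A4 had 6.31 to 23.0 CPM in mated abdomens and 13.1 to 29.7 CPM in virgin abdomens. The ranges of all 3 overlapped, with log2 changes of -0.49 ± 0.32, -0.31 ± 0.38 and -0.52 ± 0.43 and edgeR adjusted p-values of 0.218 to 0.511. Per kilobase of exon these 3 genes were of similar level, at 8.44 ± 3.42, 10.7 ± 4.18 and 7.89 ± 3.56 CPM in mated abdomens (SD, n = 6) and 12.0 ± 3.29, 13.4 ± 5.24 and 11.5 ± 4.73 CPM in virgin abdomens (SD, n = 3).

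Mal-A5 stood apart from its neighbours in level and in steadiness. It had 252, 229 and 258 CPM in abdomens mated to M males and 246, 254 and 253 CPM in those mated to P males, against 246, 231 and 220.5 CPM in virgin abdomens. The groups overlapped, and the log2 change of 0.13 ± 0.07 did not pass (edgeR adjusted p = 0.132). When libraries were scaled to muscle and renal tubule genes in place of all genes, the median change of all genes became -0.96. Mal-A5 then passed as lower at -0.87, which is 0.09 above that median. Mal-A2, Mal-A3 and Mal-A4 also passed as lower under that scaling. In all, 9 of the 10 genes did, where 7132 of the 10350 genes tested did. Relative to the median of all genes, tobi was at -2.15 under either scaling. Rescaling moves all genes by nearly the same amount, so this likeness was fixed in advance and is no check on the fall.

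Mal-B1, outside the cluster, had 12.9, 14.6 and 21.2 CPM in abdomens mated to M males and 13.4, 5.93 and 25.0 CPM in those mated to P males, against 1.01, 21.7 and 11.8 CPM in virgin abdomens. Virgin 1 was far below the rest at 51 reads, and the groups overlapped. The log2 change was 0.46 ± 0.82 (edgeR adjusted p = 0.656), and -0.55 under the muscle and renal tubule scaling.

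**Figure D2:**
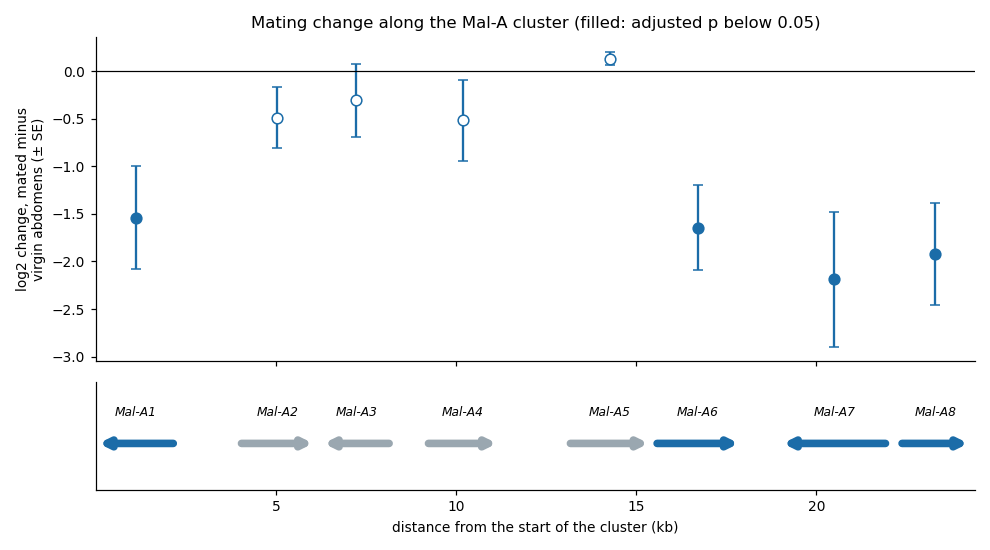
Log2 change of each Mal-A gene, mated minus virgin abdomens, with its SE (upper panel), above the position, length and direction of transcription of the genes in kilobases from the start of the cluster (lower panel). Filled points and blue arrows are genes with an edgeR adjusted p below 0.05: Mal-A1 at one end and Mal-A6, Mal-A7 and Mal-A8 at the other, with Mal-A2 to Mal-A5 between them.

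The calls in the cluster depended on single libraries. Without virgin 2, which was the highest library for each of Mal-A1 to Mal-A4 and Mal-A6 to Mal-A8, only tobi of the 5 passed, with adjusted p-values of 0.127 for Mal-A1, 0.0594 for Mal-A6, 0.101 for Mal-A7 and 0.0699 for Mal-A8. Without virgin 3 or P1, 3 of the genes passed, Mal-A1 and Mal-A7 being lost. Without M1, M3, P3 or virgin 1, Mal-A1 alone was lost (adjusted p between 0.0586 and 0.0938). Without M2, Mal-A7 alone was lost (0.0685).

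Markers of other cell types moved in the same libraries. Midgut proteases were higher in mated abdomens, with 24 of 27 tested genes passing and sums of 4187 to 9110 CPM in mated abdomens, against 1459 to 3200 CPM in virgin abdomens. Of the muscle genes 20 of 21 were higher, with sums of 3469 to 3925 CPM in mated abdomens, against 1752 to 2150 CPM in virgin abdomens. Renal tubule genes (10 of 12 higher) summed to 468 to 547 CPM in mated abdomens, against 289 to 357 CPM in virgin abdomens, and fat body genes (5 of 8 higher) to 2422 to 3074 CPM in mated abdomens, against 1751 to 2156 CPM in virgin abdomens. Germline genes (6 of 10 lower) summed to 3566 to 4551 CPM in mated abdomens, against 4558 to 4923 CPM in virgin abdomens. Their part in the maltase and tobi values was not tested. The 5 genes were lower, and the sum of the proteases higher, in the same libraries. The Mal-A genes other than Mal-A5 summed to 1.17, 3.19 and 1.99 CPM per 100 CPM of protease in abdomens mated to M males and 2.20, 0.814 and 6.02 in those mated to P males, against 20.1, 15.9 and 20.9 in virgin abdomens. The ratios of the groups did not overlap.

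**Figure D3:**
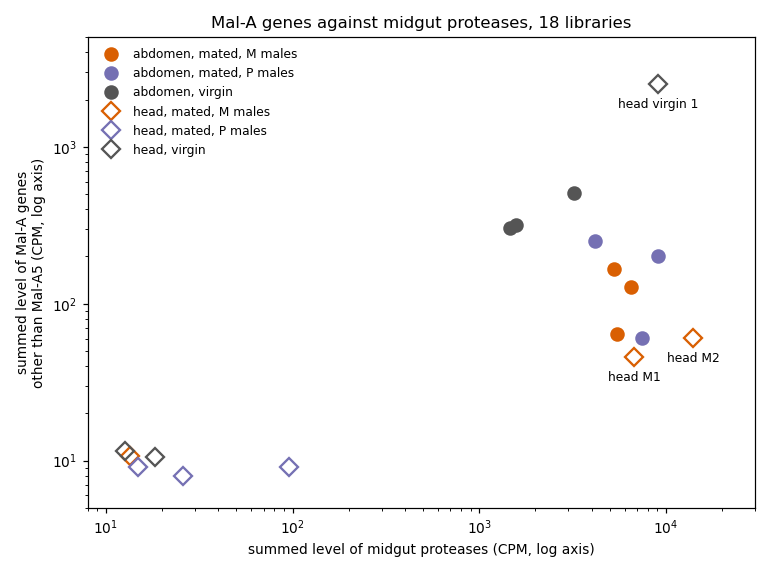
Summed level of the Mal-A genes other than Mal-A5 against the summed level of 29 midgut proteases, both in CPM on log axes, for all 18 libraries. Mated abdomens lie to the right of and below virgin abdomens; head virgin 1 has a Mal-A sum of 2518 CPM, while heads M1 and M2, with similar or higher protease sums, have 45.8 and 60.5 CPM.

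Each male regime was also set against the virgins. Both comparisons share the 3 virgin libraries, so their values are only placed side by side. With M males 3 genes passed as lower (45.4% of all genes passed in either direction, 21% in the lower), and with P males 1 did (47.6% and 21.7%). The change of tobi was -2.23 ± 0.32 with M males (edgeR adjusted p = 0.00168) and -1.98 ± 0.32 with P males (0.00228). Mal-A6 changed by -2.05 ± 0.56 with M males (0.0220) and had -1.24 ± 0.54 with P males (0.0965), and Mal-A8 changed by -2.28 ± 0.68 with M males (0.0304) and had -1.57 ± 0.66 with P males (0.0868). Without M1, M2 or virgin 2, tobi alone passed in the M comparison, and without P2 5 genes did.

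The direct comparison of P with M males found none of these genes past the threshold in abdomens. Of the 10 genes 0 passed in edgeR, 0 had an unadjusted p below 0.05, and DESeq2 and limma voom also called 0. The share of all genes passing was 0%. The log2 difference, P minus M, was 0.25 ± 0.31 for tobi, 0.53 ± 0.65 for Mal-A1, 0.82 ± 0.54 for Mal-A6, 0.67 ± 0.87 for Mal-A7 and 0.71 ± 0.66 for Mal-A8. For Mal-A5 it was 0.02 ± 0.08. These SEs leave room for differences of a similar order to the mating change for Mal-A6, Mal-A7 and Mal-A8, and less for tobi.

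Levels of the cluster's genes were correlated across the 9 abdomens, as a description, within the genes that passed and within those that did not. Pearson's r of log2 CPM was 0.926 to 0.983 among Mal-A1, Mal-A6, Mal-A7 and Mal-A8, and 0.937 to 0.979 among Mal-A2, Mal-A3 and Mal-A4, with 0.721 to 0.900 between the sets. Mal-A5 had r of -0.639 to -0.226 with the others. With tobi, r was 0.811 to 0.864 for the first set and 0.497 to 0.670 for the second, and Mal-B1 had r of -0.072 to 0.213 with the Mal-A genes. All of these points share the split into mated and virgin groups; among the 6 mated abdomens alone the r was 0.830 to 0.966 in the first set, 0.945 to 0.990 in the second and 0.831 to 0.980 between them, so the sets did not stand apart there. In those 6 libraries tobi had r of 0.372 to 0.730 with the first set and 0.689 to 0.727 with the second, and Mal-B1 had 0.025 to 0.797 with the Mal-A genes. Among the mated abdomens P3 was highest and M1 and P2 were the lowest for each of Mal-A1 to Mal-A4 and Mal-A6 to Mal-A8. For tobi P3 was also highest, but M3 was the lowest.

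Of the summed level of the 8 Mal-A genes per kilobase of exon, Mal-A5 made up a larger share in mated abdomens, 63.4% ± 13.2 (SD, n = 6), against 37.8% ± 6.61 in virgin abdomens (SD, n = 3). Mal-A1 held 13.6% ± 6.41 in mated abdomens and 27.0% ± 1.67 in virgin abdomens. Mal-A7 held 2.12% ± 1.25 in mated abdomens and 6.57% ± 1.25 in virgin abdomens.

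Among 8821 other genes with a mean of at least 1 CPM, those nearest to tobi over the 9 abdomens were Drep2 (r = 0.978), MME1 (0.976), Tailor (0.973), CG2061 (0.973) and Snrk (0.972). Their differences were smaller than that of tobi, as Snrk, a protein kinase gene, shows with 123 ± 4.91 CPM in mated abdomens (SD, n = 6) and 166 ± 7.28 CPM in virgin abdomens (SD, n = 3). Nearest to the mean of the Mal-A genes were CG4377 (r = 0.971), trn (0.957), CG9512 (0.957), CG4363 (0.951) and CG6484 (0.951). CG4363 came closest to the maltases in size, with 16.5 ± 7.71 CPM in mated abdomens and 38.1 ± 8.48 CPM in virgin abdomens.

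The genes of Dawdle and Sugarbabe, and others of sugar sensing and activin signalling, were measured in the same abdomens. Their part in the maltase and tobi values was not tested. Of 8 genes of sugar sensing and activin signalling, 5 rose and 0 fell, where 29% of all genes rose, and their median log2 change was 0.32, against 0.04 over all genes. The gene daw, which encodes Dawdle, rose by 1.97 ± 0.17 (edgeR adjusted p = 6.88e-05) to 36.4 ± 5.46 CPM in mated abdomens (SD, n = 6), against 9.52 ± 1.92 CPM in virgin abdomens (SD, n = 3). The Sugarbabe gene sug rose by 1.17 ± 0.28 (0.00758) to 36.4 ± 6.37 CPM in mated abdomens, against 16.6 ± 7.07 CPM in virgin abdomens. The repressor cabut (cbt) rose by 0.49 ± 0.09, and the activin receptor genes put and babo by 0.35 ± 0.08 and 0.29 ± 0.07. Those not passing were Mondo (0.12 ± 0.09), bigmax (0.25 ± 0.10) and Smox (-0.15 ± 0.07). Mondo and bigmax encode the partners of the sugar-sensing transcription factor, and Smox the Smad of the activin branch. Under the muscle and renal tubule scaling the median change of all genes was -0.96. Rises smaller than that shift depend on the scaling for their direction, such as those of cbt, put and babo, and of Mal-B2, Treh, Tret1-1 and Slc45-1 below. The rises of sug and, below, of AkhR were little larger than that shift, so their size depends on the scaling too.

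Other enzymes of sugar breakdown and storage did not move as the maltases did. Of 9 tested genes of starch, glycogen and trehalose metabolism, 2 rose and 1 fell, with a median log2 change of -0.01; 54.2% of all genes passed. The α-amylase gene Amy-p averaged 41.9 ± 30.8 CPM in mated abdomens and 34.2 ± 17.6 CPM in virgin abdomens (log2 change 0.28 ± 0.55, edgeR adjusted p = 0.688), and its near-identical copy Amy-d, with which it may share reads, averaged 11.8 ± 6.34 CPM in mated abdomens and 11.5 ± 4.39 CPM in virgin abdomens (0.03 ± 0.38, 0.950). Mal-B2, the other maltase gene of the B group, rose by 0.41 ± 0.13 (0.0266) to 90.1 ± 8.34 CPM in mated abdomens, against 69.3 ± 18.3 CPM in virgin abdomens. Treh, which splits trehalose, rose by 0.36 ± 0.08 (0.00453), and the glycogen synthase gene Glys fell by 0.19 on the log2 scale (SE 0.06, 0.0235).

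Of 7 tested sugar transporter genes, with a median log2 change of 0.25, 2 rose (the trehalose transporter Tret1-1 by 0.69 ± 0.13 and the sucrose transporter Slc45-1 by 0.73 ± 0.15) and sut1 fell to 190 ± 5.80 CPM in mated abdomens, against 253 ± 13.9 CPM in virgin abdomens. Of 9 tested genes of insulin-like and adipokinetic hormone signalling, 4 rose and 1 fell in mated abdomens, with a median log2 change of 0.18, a count near the 54.2% of all genes that passed. Thor, the translational repressor 4E-BP, rose by 1.58 ± 0.20, ImpL2, which binds insulin-like peptides, by 1.43 ± 0.11, and AkhR, the adipokinetic hormone receptor, by 1.04 ± 0.21, while Ilp8 fell to 42.4 ± 9.95 CPM in mated abdomens, against 99.3 ± 6.51 CPM in virgin abdomens.

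In heads, tobi and Mal-A5 lay lower in every mated library than in every virgin library, but neither passed the test. Of the 10 genes 8 were tested in heads, since Mal-A3 and Mal-A4 fell under the expression filter. None passed in edgeR (2.21% of 10886 genes did), and 7 had an unadjusted p below 0.05 (15.7% of all genes did). Of those 7, Mal-A1, Mal-A2, Mal-A6, Mal-A7 and Mal-A8 rested on head virgin 1, without which their log2 changes were 0.38 to 2.28. In limma voom 2 genes had an unadjusted p below 0.05, and 0 were called. DESeq2 called 2, tobi and Mal-A5, with adjusted p-values of 0.0324 and 0.0391 (5.84% of all genes). DESeq2 set no adjusted p for Mal-A1, Mal-A2, Mal-A6, Mal-A7 and Mal-A8.

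Levels of tobi were 158, 484 and 102 CPM in heads mated to M males and 134, 211 and 227 CPM in heads mated to P males, against 1171, 511 and 707 CPM in virgin heads. M2 was highest among the mated heads and virgin 1 among the virgin ones, and both are among the heads with gut transcripts; without the 3 such heads the mated values were 102 to 227 CPM, against 511 and 707 CPM in virgin heads. The log2 change was -1.83 ± 0.55 over all heads (edgeR adjusted p = 0.188) and -2.11 ± 0.28 without the 3 (0.120), where 0 of all genes passed. Fat body markers, 10 genes, summed to 11345 to 13437 CPM in mated heads and 12883 to 13016 CPM in virgin heads, and of the 8 tested 1 was higher and 0 lower. Yolk protein genes (1 of 3 higher) summed to 78398 to 115509 CPM in mated heads, against 60033 to 72632 CPM in virgin heads. Genes listed as enteroendocrine peptides (0 of 7 passed) summed to 314 to 395 CPM in mated heads, against 407 to 497 CPM in virgin heads. Neither sum overlapped between the groups, and their part in the tobi values was not tested. All 7 peptide genes passed as lower in abdomens than in heads, so in heads they are not read as gut markers.

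Mal-A5 had 89.9, 105 and 112 CPM in heads mated to M males and 98.3, 104 and 108 CPM in heads mated to P males, against 114, 126 and 131 CPM in virgin heads. The groups lay close without overlapping, as they did in that direction for 5.9% of all genes, and for 11.8% without the 3 heads with gut transcripts. The log2 change was -0.22 ± 0.06 over all heads (edgeR adjusted p = 0.107) and -0.24 ± 0.07 without those 3 (0.392).

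Mal-A1 and Mal-A6 in heads were highest where gut transcripts were. In virgin heads Mal-A1 had 1110 CPM in virgin 1 and 7.98 and 7.50 CPM in virgin 2 and 3, and in mated heads it had 24.5 and 34.7 CPM in M1 and M2 and 5.73 to 7.65 CPM in the other 4. Mal-A6 had 17.4 and 16.2 CPM in M1 and M2 and 1.80 to 2.33 CPM in the other mated heads, against 537 CPM in virgin 1 and 2.74 and 2.25 CPM in virgin 2 and 3. The 3 heads set apart were thus the highest ones for both genes, and of these virgin 1 stood above M1 and M2 by more than M1 and M2 stood above the rest.

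Mal-A7 and Mal-A8 showed the same in steeper form, but Mal-A3 was high in virgin 1 only, with 131 reads there, 3 in M1 and 1 in M2. Mal-A7 had 0.273 and 2.01 CPM in heads M1 and M2 and 0.0173 to 0.0648 CPM in the other mated heads, against 472 CPM in virgin 1 and 0.114 and 0.198 CPM in virgin 2 and 3. Mal-A8 had 2.12 and 4.69 CPM in M1 and M2 and 0.0396 to 0.0864 CPM in the other mated heads, against 338 CPM in virgin 1 and 0.114 and 0.0495 CPM in virgin 2 and 3. In head libraries 3 reads make 0.0463 to 0.0743 CPM, so many of these values rest on a few reads, and Mal-A4 was at 0 reads in P1 and virgin 2, which allows up to 0.0594 and 0.0684 CPM.

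**Figure D4:**
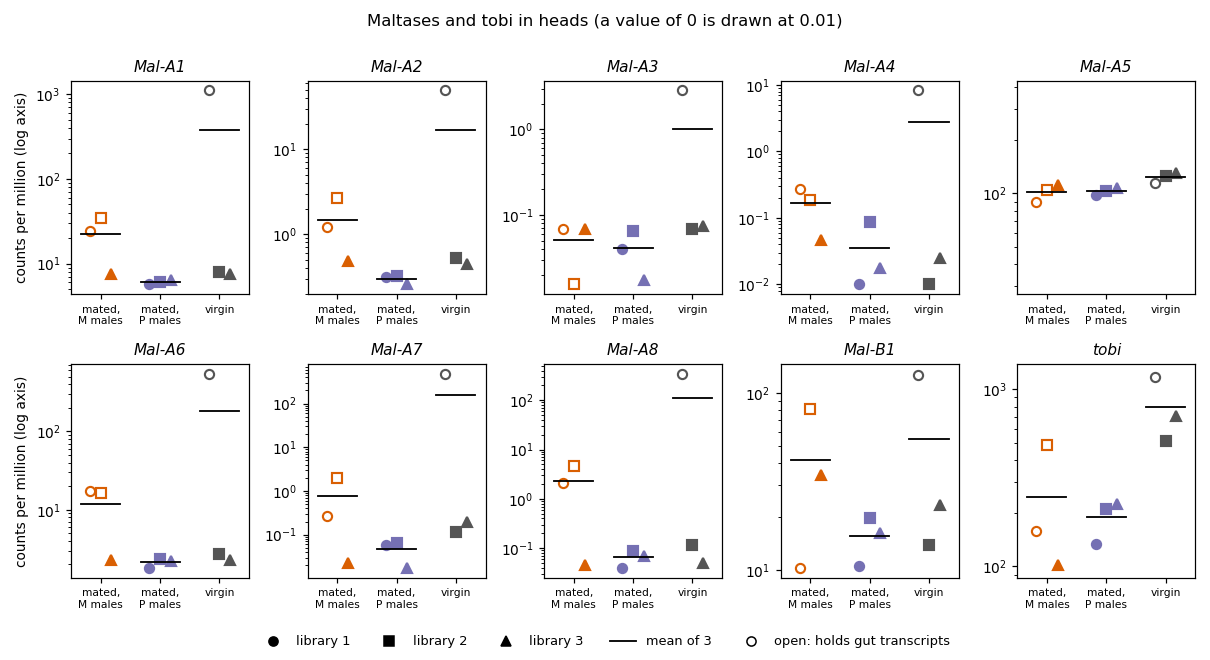
Level of each of the 10 genes in the 9 head libraries, in CPM on a log axis, with 1 panel per gene, symbols for libraries 1 to 3 and lines for group means. Open symbols are heads M1, M2 and virgin 1, which hold gut transcripts; virgin 1 is highest in every panel except that of Mal-A5.

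Relative to the proteases, the Mal-A genes other than Mal-A5 stood at 0.680 and 0.432 CPM per 100 CPM of protease in heads M1 and M2, against 27.7 in head virgin 1. Mated abdomens, at 0.814 to 6.02, were likewise below virgin abdomens, at 15.9 to 20.9. With a single virgin head of this kind the ratio in heads has no replicate check. Without the 3 heads, Mal-A1 had a log2 change of -0.16 ± 0.11 (edgeR adjusted p = 0.754), Mal-A2 of -0.34 ± 0.33 (0.826) and Mal-A6 of -0.16 ± 0.20 (0.867), and Mal-A7 and Mal-A8 were no longer tested. Over all heads these 5 genes had log2 changes of -9.60 to -4.61, and without virgin 1 alone of 0.38 to 2.28.

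Mal-B1 had 10.3, 80.9 and 34.1 CPM in heads mated to M males and 10.5, 19.7 and 16.2 CPM in those mated to P males, against 127, 13.9 and 23.3 CPM in virgin heads. The groups overlapped. Its log2 change was -1.07 ± 0.88 over all heads (edgeR adjusted p = 0.605) and 0.33 ± 0.38 without the 3.

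Between male regimes, 0 of the 8 genes tested in heads passed in edgeR (0% of all genes did), 0 had an unadjusted p below 0.05, and DESeq2 and limma voom called 0. The difference for tobi, P minus M, was -0.42 ± 0.66 over all heads and 0.96 ± 0.37 without the 3 set apart, where M3 was the only M library left. Against virgins, 0 genes passed with M males (0.992% of all genes did), and 1 had an unadjusted edgeR p below 0.05, where 11.1% of all genes had. DESeq2 and voom called 0 there. With P males 0 passed (1.38% of all genes did), and 7 had an unadjusted edgeR p below 0.05 (19.2% of all genes had), but 2 in voom. DESeq2 called 1 with P males, tobi (6.88% of all genes), and voom 0. Without the 3 heads set apart, the change with P males was -0.29 for Mal-A1, -0.65 for Mal-A2 and -0.19 for Mal-A6.

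Hormone genes of the brain and corpora cardiaca were measured in the same heads. The insulin-like peptide genes Ilp2, Ilp3 and Ilp5 had 83.5 ± 7.87, 45.5 ± 3.48 and 21.6 ± 1.79 CPM in mated heads (SD, n = 6), against 81.3 ± 4.31, 46.2 ± 5.40 and 19.2 ± 1.45 CPM in virgin heads (SD, n = 3). The adipokinetic hormone gene Akh had 65.4 ± 15.2 CPM in mated heads and 52.5 ± 15.6 CPM in virgin heads. None of the 4 passed, with log2 changes of 0.02 to 0.36. Of 13 genes of insulin-like and adipokinetic hormone signalling in heads, 1 passed: Thor rose by 1.03 ± 0.15 (edgeR adjusted p = 0.0125). The genes daw (0.33 ± 0.19) and sug (0.45 ± 0.33) did not pass in heads.

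The abdomen and head differed in which of the genes they held. Of the 10 genes, 4 were higher in abdomens and 2 lower at an edgeR adjusted p below 0.05, in a comparison that 92.4% of 11631 genes passed (46.9% higher, 45.5% lower in abdomens). The log2 difference, abdomen minus head, was 2.99 ± 0.78 for Mal-A2 and 0.85 ± 0.05 for Mal-A5. Mal-A3 and Mal-A4, the other genes higher in abdomens, entered this comparison through abdomens alone, so their direction was fixed by the filter and no fold is given; in heads other than virgin 1 they had at most 3 and 12 reads. It was -3.67 ± 0.33 for tobi and -1.53 ± 0.60 for Mal-B1. Without heads M1, M2 and virgin 1, Mal-A1 (3.03 ± 0.47), Mal-A6 (3.37 ± 0.40), Mal-A7 and Mal-A8 also passed as higher in abdomens (45.7% of all genes were higher and 44.3% lower), and Mal-B1 did not pass (-0.91 ± 0.52, adjusted p = 0.121). Mal-A7 and Mal-A8, at no more than 8 reads in each of the 6 heads left, then entered through abdomens alone too. Leaving out virgin 1 alone gave the same calls, and without M2 alone Mal-B1 did not pass either (0.0667).

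Per kilobase of exon, Mal-A5 led in mated abdomens with 118 ± 5.04 CPM, followed by Mal-A1 with 28.0 ± 16.8 CPM, and the other 8 genes averaged between 4.44 and 10.7 CPM with overlapping ranges (SD, n = 6). In virgin abdomens the order was Mal-A5 (111 ± 6.06), Mal-A1 (81.4 ± 20.4), tobi (41.5 ± 6.81), Mal-A6 (27.8 ± 8.42), Mal-A8 (22.6 ± 9.61) and Mal-A7 (19.96 ± 7.12), followed by Mal-A3, Mal-A2 and Mal-A4 at 11.5 to 13.4 and Mal-B1 at 6.34 ± 5.70 CPM per kilobase (SD, n = 3). Ranges of neighbours in that order overlapped except between Mal-A1 and tobi. In the 6 heads without abundant gut transcripts tobi led with 80.0 ± 28.5 CPM per kilobase in mated heads (n = 4) and 289 ± 66.1 in virgin heads (n = 2), followed by Mal-A5 with 50.1 ± 2.72 in mated and 61.0 ± 1.52 in virgin heads. The ranges of tobi and Mal-A5 overlapped in those mated heads and not in the virgin ones. Mal-B1 had 11.1 ± 5.55 CPM per kilobase in mated and 10.3 ± 3.66 in virgin heads, Mal-A1 had 3.56 ± 0.453 in mated and 4.24 ± 0.187 in virgin heads, and Mal-A6 had 0.946 ± 0.108 in mated and 1.09 ± 0.150 in virgin heads, with no overlap between these genes, while Mal-A2, Mal-A3, Mal-A4, Mal-A7 and Mal-A8 were each under 0.26 in every library.

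The mating change itself was compared between the tissues. Of the 10 genes 2 passed as different, where 37.2% of 11631 genes did. A head and an abdomen library of the same label share a male population, and with that label as a block 0 differed (adjusted p = 0.0636 for Mal-A5 and 0.217 for Mal-A3). For Mal-A5 the change in abdomens minus that in heads was 0.29 ± 0.10 (edgeR adjusted p = 0.0346), with log2 changes of 0.13 in abdomens and -0.22 in heads; without the 3 heads it was 0.31 ± 0.10 (0.0481), but without abdomen M1, M3, P1, virgin 2 or virgin 3, or head M1, P1, virgin 2 or virgin 3, its adjusted p was 0.0501 to 0.0964. Scaling to muscle genes turned it to -0.74 (adjusted p = 0.000287), with the median of all genes at -0.98. For Mal-A3 it was 4.07 ± 1.34 (0.0305). Mal-A3 entered this test through abdomens alone, so its call is not read as a result. The value rested on 2.87 CPM in head virgin 1, against at most 0.0743 CPM in the other heads, and became 0.31 without that library. Without abdomen virgin 1 or virgin 3, or head M2, P1 or P3, the adjusted p for Mal-A3 was 0.0503 to 0.0732. For tobi the difference was -0.36 ± 0.63 (0.677) over all libraries and -0.07 ± 0.43 (0.950) without the 3 heads.

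**Figure D5:**
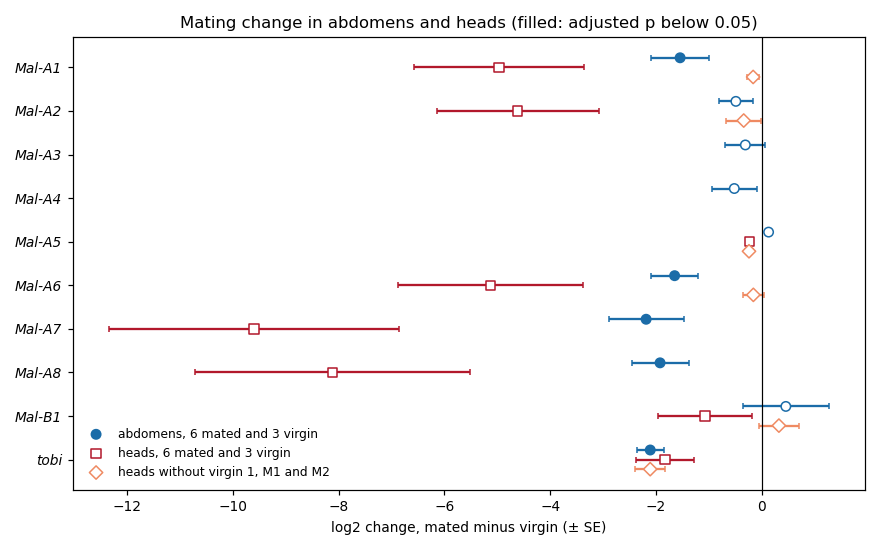
Log2 change, mated minus virgin, with its SE for each gene in abdomens (circles), in all heads (squares) and in heads without virgin 1, M1 and M2 (diamonds); filled symbols have an edgeR adjusted p below 0.05, and a missing symbol is a gene not tested. The 3 values of tobi lie between -2.11 and -1.83, while those of Mal-A1, Mal-A2 and Mal-A6 in heads move to near 0 once the 3 heads are left out.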

How the data were processed

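Pools of 20 heads or abdomens went into a stranded kit for total RNA, per the labels' protocols. Per the submitters' processing notes, Trimmomatic 0.33, TopHat2 2.1.0 and HTSeq 0.6.1 were used with the BDGP6 build; the sources used here give neither the release of the annotation nor the setting for strand. The deposited table holds whole-number counts per gene, not normalized by the authors, in 36 columns: 2 sequencing runs of each of 18 libraries. Per degree of freedom, chi-square between runs of 1 library was 1.81 to 3.32, and between libraries of 1 group 38.7 to 227, so runs were summed and n counts libraries. All columns were used. Symbols and coordinates came from Ensembl release 115 of BDGP6, in which 17387 gene identifiers were found. Sequences of the genes were not used here.

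The main test was edgeR 4.0.16 in R 4.3.3, by quasi-likelihood (TMM scaling, the package's expression filter, robust dispersions), with 1 model of 3 groups per tissue and 1 model of 6 groups over both. Benjamini-Hochberg adjustment ran over all genes tested, with a threshold of 0.05, and an SE is the log2 change over the root of its F. CPM are counts per library total, and limits set by 3 reads reflect counting error only. Variation between libraries, as edgeR's common coefficient, was 0.172 for abdomens and 0.272 for heads. DESeq2 1.42.0 and limma 3.58.1 (voom) were alternatives, besides other scalings and filters, single runs, a replicate block, a protease covariate in heads, heads without virgin 1, M1 and M2, and each library left out. The scripts were tested on simulated counts.

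Members, gene lists and tests were chosen with earlier results of these data known. All 10 members are named; from the lists of related genes, those with the smallest p in abdomens were named, with Mal-B2, both amylases and 4 hormone genes fixed by name. Nearest genes were the 5 with the highest Pearson's r of log2(CPM + 0.5). Further genes of the sugar sensing list, AkhR, and CG4363 and Snrk as examples, were picked after their values were seen. Deviations from group means correlated at r of -0.246 to 0.0519 in same-numbered and -0.243 to 0.351 in other pairs of abdomens. In heads r was -0.550 to 0.714 in same-numbered and -0.851 to 0.764 in other pairs, so the numbers were not taken to pair libraries within a tissue. Between heads and abdomens of a group r was -0.394 to 0.225 in same-numbered and -0.318 to 0.351 in other pairs.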

Additional observations from a re-analysis of the deposited data

Results flagged for a closer look

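In 3 of 20 sets of mated libraries, examined over both tissues, the highest of the 6 mated heads stood far from the other 5. The sets share libraries and many of the genes are correlated, so no chance rate is set beside that count. In each of the 3 sets the highest was head M2: 2.01 CPM for Mal-A7, 80.9 CPM for Mal-B1 and 484 CPM for tobi. Head M2 also had the highest midgut protease sum of all libraries, 14011 CPM; its part in these values was not tested. In the other mated heads Mal-A7 reached at most 0.273 CPM, Mal-B1 34.1 CPM and tobi 227 CPM.

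The mating change passed as different between abdomens and heads for Mal-A3, by 4.07 on the log2 scale, and for Mal-A5, by 0.29. Mal-A3 entered that test through abdomens alone, so its call is not read as a result. The value of Mal-A3 was 0.31 without head virgin 1. That of Mal-A5 was 0.31 without heads virgin 1, M1 and M2, turned to -0.74 with muscle scaling (edgeR adjusted p = 0.000287) and did not pass with the pool label as a block (0.0636).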

How the results depend on the processing

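For single genes, 1131 of the alternative values kept direction and side of the threshold, 55 lost a call, 41 gained one and 37 changed sign; tobi in abdomens kept its call throughout.

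In abdomens, mated against virgin, 3 genes passed with no expression filter, in run 2 alone or with the replicate block. Over all genes, 2521 of 14208, 2171 of 9193 and 2210 of 10350 passed as lower, in that order. With muscle and tubule scaling 9 passed as lower, all but Mal-B1 (-0.55), with Mal-A5 at -0.87. Of all 10350 genes 7132 did so under that scaling. Leaving out 1 library gave 1 to 5. For M males, DESeq2 called 5, the replicate block 1 and muscle and tubule scaling 9, with 1 to 5 on leaving out a library. Of all 10350 genes, 2616 passed as lower in DESeq2, 1643 with the block and 7014 with that scaling. For P males, DESeq2 called 3, voom 2 and that scaling 7, where 2940, 2265 and 6777 of 10350 genes passed as lower. In heads DESeq2 called 2 (5.84% of all genes) and the protease covariate 2, Mal-A7 and Mal-A8. With the covariate 85 of 10886 genes passed as higher and 151 as lower. Mal-A7 and Mal-A8 had 472 and 338 CPM in head virgin 1, against at most 2.01 and 4.69 CPM in the other heads. Without the 3 heads with gut transcripts they were not tested. For M males the covariate gave 2, where 34 genes passed as higher and 57 as lower. For P males DESeq2 gave 1 (6.88% of all genes). The difference between tissues had 4 calls in DESeq2, 1 in voom, 1 in run 2, 0 with the replicate block, 1 without the 3 heads and 1 with muscle scaling (Mal-A5 -0.74), and 0 to 5 on leaving out a library. Of all 11631 genes, 2393 passed as higher and 2046 as lower in DESeq2, 1860 and 2000 in voom, and 2030 and 2282 with the block. Passing genes were 1544 and 1264 of 10540 in run 2, 1461 and 1354 of 12099 without the 3 heads, and 212 and 6650 of 11631 with muscle scaling. Mal-A3 and Mal-A4 entered through abdomens alone. Between tissues, 6 to 9 passed on leaving out a library. The cause was not tested. Within a tissue the replicate numbers were not taken to pair libraries, but a mated head and abdomen library of the same label share a male population.

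Signs changed as follows. Without the 3 heads, Mal-B1 in heads was 0.33 and tobi, P minus M, 0.96; with the covariate the P minus M values were 1.07 for Mal-A6, 3.92 for Mal-A8 and 0.55 for tobi. The difference between tissues without the 3 heads was -1.44 for Mal-A1, -0.20 for Mal-A2, -2.13 for Mal-A4, -1.55 for Mal-A6, -0.083 for Mal-A7 and -1.41 for Mal-A8. The SE was 2.40 for Mal-A4, 107 for Mal-A7 and 2.08 for Mal-A8, which had few reads in the heads left. The signs of those genes were therefore not determined. With the replicate block the difference was -0.79 for Mal-A1, -1.10 for Mal-A6 and -0.65 for Mal-A8.

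Leaving out 1 library gave ranges across 0. In abdomens these were -0.57 to 0.001 for Mal-A3, -0.088 to 1.30 for Mal-B1 and, P minus M, -0.033 to 0.49 for tobi. In heads, mated minus virgin, they were -5.55 to 0.66 for Mal-A1, -5.18 to 0.51 for Mal-A2, -5.71 to 1.08 for Mal-A6, -10.83 to 0.38 for Mal-A7, -8.70 to 2.28 for Mal-A8 and -1.55 to 0.51 for Mal-B1; with M males -4.43 to 2.36 for Mal-A6 and -6.64 to 4.85 for Mal-A8; and, P minus M, -0.81 to 0.53 for tobi. For the difference between tissues they were -2.24 to 3.89 for Mal-A1, -1.05 to 4.58 for Mal-A2, -3.07 to 5.34 for Mal-A4, -2.77 to 3.95 for Mal-A6, -2.63 to 8.54 for Mal-A7, -4.24 to 6.67 for Mal-A8, -0.11 to 2.26 for Mal-B1 and -0.73 to 0.11 for tobi. In heads and between tissues, signs turned with head virgin 1 left out, except for tobi, where it was head M2. In abdomens it was virgin 2 for Mal-A3, virgin 1 for Mal-B1 and P3 for tobi.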
